A study of Mus musculus with 12 samples.

Results

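Fn1, Havcr2 and Rgs7bp form a group of 3 genes whose signal was highest in cells carrying mutant CEBPA alone and lower when mutant CSF3R was expressed in the same cells. They were chosen from the measured values, for a negative interaction between the 2 mutations together with a highest group mean with CEBPA_V314VW alone, and they are 3 of 22206 gene probe sets on the array. Applied to every probe set as an interaction of -1 or lower on the log2 scale with an adjusted p under 0.05, that rule was met by 18 probe sets, which is 0.0811% of those tested, and the 3 genes held the 3 most negative interactions among them. Because the interaction and the level with CEBPA_V314VW alone made the choice, the levels and differences built on them are a description here and carry no test.

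The cells were mouse HoxB8 progenitors, myeloid cells kept immature by an estrogen-dependent HoxB8 protein, and every group was transduced with retroviruses, sorted for both fluorescent markers, and cultured without estrogen for 24 hours before 100 ng of total RNA was labelled. CEBPA_V314VW cells carried that mutant CEBPA and the cells with both mutations carried it together with mutant CSF3R. CSF3R_T618I cells carried the mutant receptor alone, and empty vector cells carried MSCV-IRES-GFP and MSCV-IRES-mCherry with no inserted gene. Each group had 3 arrays, named A, B and C and described as biological replicates, all from the same kind of HoxB8 cells and with expression driven by the viral vector. The labels do not say whether a replicate was a separate transduction, so the errors and p-values measure the spread between these samples.

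CEBPA encodes C/EBPα, a transcription factor required for granulocyte formation, and C-terminal mutations such as V314VW lie in its DNA binding and dimerization region. CSF3R encodes the granulocyte colony-stimulating factor receptor, and T618I is a membrane-proximal mutation that makes the receptor signal through JAK and STAT proteins without ligand. Fn1 encodes fibronectin, a matrix glycoprotein that cells bind through integrins. Havcr2 encodes TIM-3, an inhibitory immune receptor that in human acute myeloid leukemia also marks leukemic stem cells. Rgs7bp encodes a palmitoylated membrane anchor for RGS proteins of the R7 family, which switch off G protein signalling and are best known from neurons.

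Each gene was read by 1 probe set. The Fn1 probe set was annotated to 7 RefSeq mRNAs and those of Havcr2 and Rgs7bp to 1 mRNA each, so splice forms of fibronectin were not separated. The RefSeq promoter table of GRCm38.p6 held a window for 2 of the 3 genes, from 250 bases before the start of transcription to 50 bases after it. These windows are shown to give the sequence around the start of each gene, with the letters of any searched motif in capitals. The Havcr2 window is chr11:46454681-46454980 on the plus strand and the Rgs7bp window is chr13:105054881-105055180 on the minus strand, both printed 5′ to 3′ on the strand of the gene.
Havcr2: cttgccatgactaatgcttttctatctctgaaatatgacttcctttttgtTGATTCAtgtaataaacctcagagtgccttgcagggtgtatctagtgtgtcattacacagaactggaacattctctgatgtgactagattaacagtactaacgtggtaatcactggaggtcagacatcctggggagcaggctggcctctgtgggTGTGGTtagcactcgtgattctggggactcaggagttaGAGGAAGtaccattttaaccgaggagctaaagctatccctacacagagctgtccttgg
Rgs7bp: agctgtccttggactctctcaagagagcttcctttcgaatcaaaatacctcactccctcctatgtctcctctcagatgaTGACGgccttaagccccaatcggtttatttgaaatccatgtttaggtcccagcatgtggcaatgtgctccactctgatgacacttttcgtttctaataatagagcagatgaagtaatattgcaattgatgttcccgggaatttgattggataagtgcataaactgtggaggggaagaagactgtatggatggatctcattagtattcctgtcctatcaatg

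Both strands were searched for 8 motifs in these windows. For transcription factors of myeloid cells these were TTGCNNAA for C/EBP proteins, TTCNNNGAA for STAT proteins, GAGGAAG for the myeloid and lymphoid factor PU.1, and TGTGGT for the RUNX factors that act in blood progenitors. For factors that answer to growth and stress signals they were TGANTCA for AP-1 and, for the cyclic AMP response element (CRE) that CREB proteins bind, TGACG. For the core promoter they were GGGCGG for the GC box bound by Sp1 and its relatives, and TATAAA for the TATA box. Havcr2 held 3 matches, which did not overlap each other: TGANTCA from position -200, TGTGGT from -46 and GAGGAAG from -8, counted from the start of transcription. Among all 32851 mouse promoter windows of the same length, 7.81% held TGANTCA, 16.8% held TGTGGT and 13.6% held GAGGAAG. Rgs7bp held 1 match, TGACG from position -171, and 20.8% of all windows held that motif. The C/EBP letters, present in 10.8% of all windows, and the STAT letters, present in 8.30%, were in neither window. The G and C content of the windows was 45.3% in Havcr2 and 42.7% in Rgs7bp, against a median of 52.7% over all windows.

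Signal was measured on Clariom S mouse arrays as log2 values after robust multi-array averaging (RMA). Array medians lay between 6.59 and 6.76, which the quantile normalisation in RMA brings together, so they do not measure array quality. Pearson's r between arrays of 1 group was 0.987 to 0.995 across gene probe sets. The number of arrays limits the precision of each value. The C arrays of CSF3R_T618I and of both mutations stood apart from the rest, with limma quality weights of 0.325 and 0.486 and background control means of 5.25 and 5.27, against 4.98 to 5.11 on the other 10 arrays. For Fn1, Havcr2 and Rgs7bp, the interaction and the difference between both mutations and empty vector are also given without them. Most other results are given with all arrays only. The Cebpa probe set averaged 12.01 in CEBPA_V314VW cells, 12.21 with both mutations, 10.71 in CSF3R_T618I cells and 11.03 in empty vector cells. The Csf3r probe set averaged 12.09 in CSF3R_T618I cells and 11.72 with both mutations, and 10.92 in CEBPA_V314VW cells and 11.39 in empty vector cells. Both were higher in the groups that carried the gene, although these probe sets may read the mouse gene, the human gene or both.

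The fibronectin gene had a higher signal on the CEBPA_V314VW arrays than on any other array. Fn1 signal was 8.56, 8.52 and 8.10 on the CEBPA_V314VW arrays. With both mutations it was 5.65, 6.03 and 5.50, with CSF3R_T618I it was 6.01, 6.22 and 6.12, and with empty vector it was 6.02, 6.09 and 6.16. The other 3 groups overlapped one another. The lowest values, 5.50 and 5.65, were on arrays with both mutations, while 6.03 lay among the values with CSF3R_T618I and empty vector. The group means were 8.39 ± 0.25 with CEBPA_V314VW, 5.73 ± 0.27 with both mutations, 6.12 ± 0.10 with CSF3R_T618I and 6.09 ± 0.07 with empty vector (SD, n = 3 each). CEBPA_V314VW alone was thus 2.30 ± 0.15 (SE) above empty vector on the log2 scale, or 4.94-fold. In bulk RNA, more cells with a transcript and more transcript per cell cannot be told apart. With both mutations the mean of Fn1 was 6.34-fold below that of CEBPA_V314VW alone, and the interaction was -2.69 ± 0.22.

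Havcr2 was higher on the CEBPA_V314VW arrays than on any other array and did not return fully to the level of empty vector cells. Its signal was 8.11, 8.02 and 8.14 with CEBPA_V314VW. It was 6.12, 6.24 and 5.61 with both mutations, 4.63, 4.85 and 4.71 with CSF3R_T618I, and 4.44, 4.50 and 5.27 with empty vector. The order of the groups was CEBPA_V314VW, both mutations, then empty vector and CSF3R_T618I, and only the last 2 groups overlapped. The means were 8.09 ± 0.06 with CEBPA_V314VW, 5.99 ± 0.33 with both mutations, 4.73 ± 0.11 with CSF3R_T618I and 4.73 ± 0.46 with empty vector (SD, n = 3 each). The difference between CEBPA_V314VW alone and empty vector was 3.36 ± 0.21 (SE), or 10.2-fold as measured, but the empty vector level was not above background on 2 of 3 arrays. The mean with both mutations was 4.29-fold below that of CEBPA_V314VW alone, and the interaction was -2.10 ± 0.29.

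Rgs7bp followed the pattern of Fn1 with a lower signal in CSF3R_T618I cells. The values were 8.24, 7.85 and 7.69 with CEBPA_V314VW. They were 5.40, 5.51 and 5.71 with both mutations, 5.07, 5.13 and 5.35 with CSF3R_T618I, and 5.73, 5.62 and 5.55 with empty vector. CEBPA_V314VW arrays lay above all others, the arrays with both mutations overlapped those with empty vector, and the CSF3R_T618I arrays lay below both. The means were 7.93 ± 0.28 with CEBPA_V314VW, 5.54 ± 0.16 with both mutations, 5.18 ± 0.14 with CSF3R_T618I and 5.63 ± 0.09 with empty vector (SD, n = 3 each). CEBPA_V314VW alone was 2.29 ± 0.15 (SE) above empty vector on the log2 scale, or 4.90-fold, and CSF3R_T618I alone was 0.45 ± 0.15 below it, a log2 difference of -0.45. The mean with both mutations was 5.24-fold below that of CEBPA_V314VW alone, and the interaction was -1.94 ± 0.21.

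**Figure D1:**
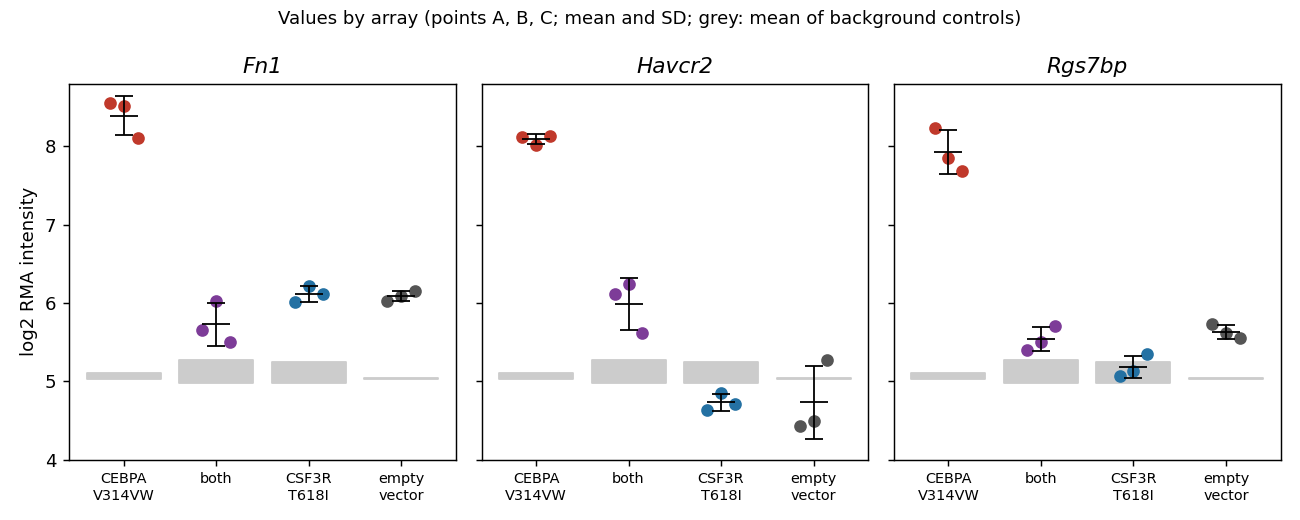
Log2 RMA signal of Fn1, Havcr2 and Rgs7bp on each of the 12 arrays, by group. Points are arrays A, B and C, black bars the mean and SD (n = 3), and grey bands the range over the arrays of a group of the mean signal of the background controls. The CEBPA_V314VW arrays lie between 7.69 and 8.56 in all 3 panels and every other array lies at or below 6.24.

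The background controls of the array put a floor under these levels. Their mean signal was 4.98 to 5.27 per array over 23 control probe sets that match no transcript and differ in G and C content. Fn1 and Rgs7bp lay above the mean of their own array on 12 of 12 arrays. Rgs7bp in CSF3R_T618I cells was close to it, at 0.11 above on average. Havcr2 was above on 7 of 12 arrays, which were all 3 with CEBPA_V314VW, all 3 with both mutations, 0 with CSF3R_T618I and 1 with empty vector. With the background mean as a floor on each array, Havcr2 was at least 7.87-fold higher with CEBPA_V314VW than with empty vector, and at least 8.10-fold higher than with CSF3R_T618I. The interaction of Havcr2 was -2.06 with that floor. The brightest background controls lay above these genes, since the 95th percentile of the controls was at least 8.47 on every array and 0 arrays exceeded their own. The G and C content of the gene probes, on which the controls differ, was not part of the data used. Relative to other genes, the CEBPA_V314VW arrays placed the 3 genes at percentiles 63.0 to 73.7 of all gene probe sets, while Havcr2 was at percentiles 16.2 to 28.7 with empty vector.

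One comparison was not itself a criterion for choosing the genes, that of cells with both mutations against empty vector cells. Its difference leaves out the CEBPA_V314VW arrays and is orthogonal to the interaction. The choice still used the means of both groups, and the adjusted p of the interaction rests on the same estimate of spread. The p-values of this comparison are therefore not wholly free of the choice. The comparison asks whether the signal with both mutations differed from that of cells with neither. Across all gene probe sets, limma with Benjamini-Hochberg adjustment called 1211 of 22206, or 5.45%, in this comparison, and 1 of the 3 genes was among them. Havcr2 remained higher with both mutations, by 1.26 ± 0.21 (SE) on the log2 scale with a 95% interval of 0.80 to 1.71 and an adjusted p of 0.00221, and it was higher on 3 of 3 arrays than on any empty vector array. This is 2.39-fold as measured and at least 1.84-fold with the background floor. Without the C arrays of CSF3R_T618I and both mutations, Havcr2 was 1.44 higher (adjusted p of 0.00228 in limma), Fn1 differed by -0.25 and Rgs7bp by -0.18, and the interactions were -1.92 for Havcr2, -2.57 for Fn1 and -1.94 for Rgs7bp. Fn1 differed by -0.36 ± 0.15, with a 95% interval of -0.69 to -0.03 and an adjusted p of 0.258 in limma, so its lower mean did not pass. Rgs7bp differed by -0.10 ± 0.15, with a 95% interval of -0.41 to 0.22 and an adjusted p of 0.822 in limma. Neither of these intervals reaches a 2-fold change. With both mutations, Fn1 and Rgs7bp were thus within less than 2-fold of empty vector, whereas Havcr2 stayed above it.

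The part of the CEBPA_V314VW difference that was left can be given as a share on the log2 scale. The difference between both mutations and empty vector was -4.15% of that between CEBPA_V314VW and empty vector for Rgs7bp and -15.6% for Fn1. For Havcr2 it was 37.4% as measured and 29.5% with the background mean as a floor, since the empty vector level lay at background. Measured against CSF3R_T618I cells in place of empty vector cells, cells with both mutations differed by 0.36 in Rgs7bp and -0.39 in Fn1. Havcr2 was at least 1.89-fold higher there with the background mean as a floor. In 68 probe sets (0.306% of all) CEBPA_V314VW alone exceeded empty vector by at least 2-fold with an adjusted p under 0.05. Their median log2 difference was 1.42 between CEBPA_V314VW and empty vector and 0.75 between both mutations and CSF3R_T618I, where the median of all gene probe sets was -0.02. The first of these differences chose the probe sets, which raises its median, so the 2 medians are not an even comparison. The second difference was above 0 in 62 of the 68 probe sets and below 0 in 6. Fn1 had the lowest of all 68 and Rgs7bp the 18th lowest, an order that the choice of the genes bears on, and Havcr2 was not ranked because its level with CSF3R_T618I was not above background.

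**Figure D2:**
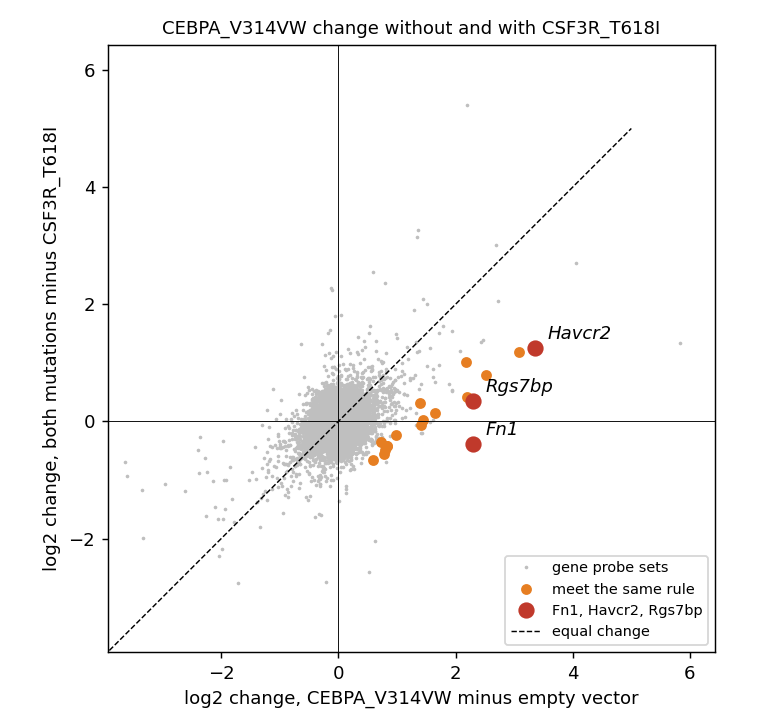
Log2 difference of CEBPA_V314VW and empty vector (x axis) against that of both mutations and CSF3R_T618I (y axis) for all gene probe sets, in grey. Orange points are the other probe sets that meet the same rule, red points the 3 genes, and the dashed line equal differences. Fn1 lies below 0 on the y axis at -0.39, while Rgs7bp lies at 0.36, and Havcr2 is drawn as measured at 1.26, against levels at background on both axes. All 3 genes lie below the line.

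The 3 genes were followed by 15 other probe sets that met the same rule, of which 1 had the same values on every array as another and 2 carried no gene name. The next 7 named genes by interaction were Socs2, a STAT-induced inhibitor of cytokine signalling, at -1.90, Il31ra, a cytokine receptor chain, at -1.78, Ifi211, an interferon-inducible gene, at -1.73, Thrb, a thyroid hormone receptor, at -1.50, Ypel2 at -1.47, Plekha7 at -1.43 and Mfge8, a secreted glycoprotein that bridges cells to apoptotic debris, at -1.32. Of the 18 probe sets, 5 were called higher, 3 lower and 10 not called with both mutations against empty vector, where 5.45% of all gene probe sets were called. The 18 were chosen on an adjusted p that uses the same estimate of spread, so these calls are not free of the choice. Like Havcr2, Socs2 was higher with both mutations than with empty vector, by 1.80 ± 0.15 (adjusted p of 6.90e-06 in limma), and so was Ifi211, which has close relatives in its gene family, by 2.00 ± 0.15 (3.04e-06). Against empty vector, Ypel2 fell by 0.65 (0.0195) and Mfge8 by 0.96 (0.00259). Il31ra, at -0.11, and Thrb, at 0.14, did not pass, as Rgs7bp did not. The last probe set inside the rule was Arhgap32, with an interaction of -1.07. Of the probe sets that missed only the threshold on adjusted p, the nearest by it were Il17rb, with an interaction of -1.34 and an adjusted p of 0.0905 in limma, and Glyat, with -1.07 and 0.339, while Il6, at -1.39 and 0.482, was farther from it.

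**Figure D3:**
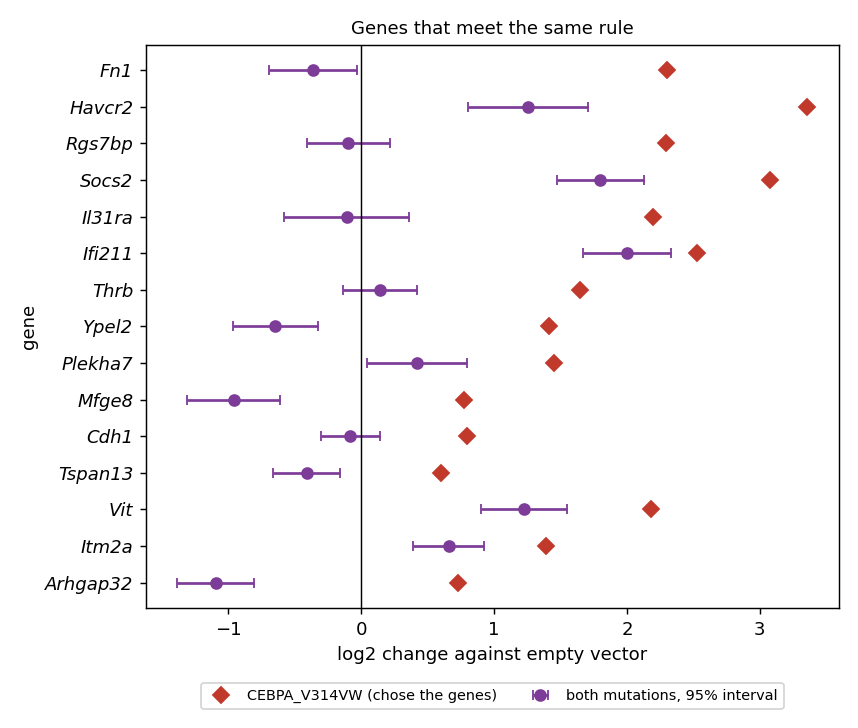
Log2 difference from empty vector of the 15 named genes that met the rule, predicted gene models left out, with the gene of the most negative interaction at the top. Red diamonds are CEBPA_V314VW alone, which the rule used, and purple points are both mutations with the 95% interval from limma. The interval of Havcr2 runs from 0.80 to 1.71 and that of Rgs7bp from -0.41 to 0.22.

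Over the 12 arrays the 3 genes had a Pearson's r of 0.954 for Fn1 with Rgs7bp, 0.904 for Havcr2 with Rgs7bp and 0.853 for Fn1 with Havcr2, values that include their shared differences between groups. Once the group means were removed, r was 0.24, -0.36 and 0.46 for the same pairs, which is of mixed sign. Among 715 named probe sets whose group means spanned at least 1 on the log2 scale, those most like the mean pattern of the 3 genes were Thrb (r = 0.980), Htr1b, a serotonin receptor (0.973), Satb1, a chromatin organizer (0.967), Il31ra (0.957) and Eya1, a transcriptional coactivator (0.945), followed by Lrrc8c, Art4, Zbtb1, Grk3 and Ypel2 at 0.936 to 0.913. Taken singly, the genes shared some of their closest matches, with Thrb among the 3 nearest to both Fn1 (0.943) and Rgs7bp (0.965). Fn1 was most like Eya1 (0.966), Havcr2 most like Satb1 (0.976) and Vit (0.973), and Rgs7bp most like Il31ra (0.978) and Htr1b (0.977). All of these matches were highest with CEBPA_V314VW alone, which follows from matching them to genes chosen for that pattern. Thrb averaged 7.94 with CEBPA_V314VW, 6.44 with both mutations, 6.29 with CSF3R_T618I and 6.29 with empty vector, which is a smaller range than those of the 3 genes.

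**Figure D4:**
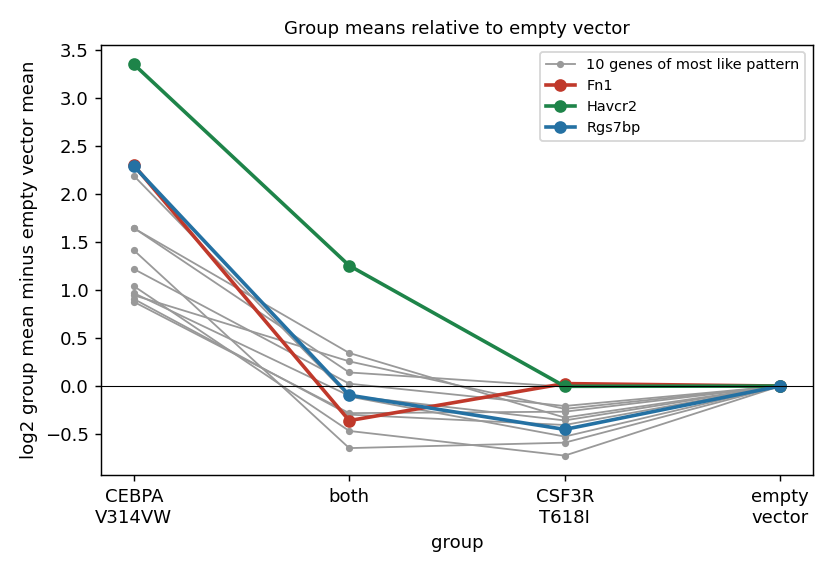
Mean log2 signal of each group minus that of empty vector cells, for Fn1, Havcr2 and Rgs7bp in colour and the 10 genes of most similar pattern in grey (n = 3 arrays per group). Lines join the groups of 1 gene only to guide the eye. Havcr2 stands at 1.26 with both mutations, and the means of Fn1 and Rgs7bp there lie at -0.36 and -0.10.

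Partners of these 3 proteins and genes of related function were taken from 4 lists, of which 74 of 77 genes were measured. The lists were fibronectin partners, TIM-3 relatives and partners, other inhibitory receptors with their ligands, and R7 and other RGS proteins. All are called partner genes below, although the other inhibitory receptors and the RGS proteins outside the R7 family were listed for related function. CEBPA_V314VW alone changed 7 of the 74 against empty vector (2 rose and 5 fell, 9.46%, beside 1.97% of all gene probe sets), and both mutations changed 18 (11 rose and 7 fell, 24.3%, beside 5.45%). These 2 comparisons share the empty vector arrays. The second does not separate CSF3R_T618I from the combination, so differences with CSF3R_T618I alone are given below for several genes. The interaction passed in 0 of the 74 genes in limma, with 8 at an unadjusted p under 0.05, and in 0.324% of all gene probe sets. With 74 genes, a count of 0 is near that share and does not set the partner genes apart.

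Of 25 measured cell surface and matrix partners of fibronectin, 0 rose and 2 fell with CEBPA_V314VW in limma (4 at an unadjusted p under 0.05), with a median of -0.10 against 0.00 for all gene probe sets. With both mutations 1 rose and 4 fell, with a median of -0.20 against -0.03. Thbs1, which encodes the matrix protein thrombospondin-1, fell by 0.74 with CEBPA_V314VW and by 1.63 with both mutations, and Itgb3, an integrin chain that binds fibronectin, fell by 0.56 and by 1.02. Itga9, which encodes another fibronectin-binding integrin chain, fell by 1.32 with both mutations, and Plaur, the urokinase receptor, rose by 0.74. Itga5, whose product pairs with that of Itgb1 to form the classical fibronectin receptor, differed by -0.20 with CEBPA_V314VW and by -0.04 with both mutations, and neither passed. Itgb1 differed by -0.10 with CEBPA_V314VW, which did not pass, and fell by 0.49 with both mutations. With CSF3R_T618I alone against empty vector, Thbs1 fell by 0.87, Itgb3 by 0.52 and Itga9 by 1.22. Plaur rose by 0.71 there, and Itgb1, at -0.28, did not pass.

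Of 11 measured relatives and partners of TIM-3, 0 rose and 1 fell with CEBPA_V314VW in limma (2 at an unadjusted p under 0.05), with a median of 0.07 against 0.00 for all gene probe sets. The family members Havcr1 and Timd4 lay at or below the background mean in all 4 groups. Of the reported ligands of TIM-3, Ceacam1 fell by 0.89 with CEBPA_V314VW, while Lgals9, which encodes galectin-9, at -0.04, and Hmgb1, at 0.12, did not pass. With both mutations Lgals3, which encodes galectin-3, rose by 2.30 and Fyn, a kinase that binds the TIM-3 tail, fell by 0.87. With CSF3R_T618I alone against empty vector, Lgals3 rose by 1.43 and Fyn, at -0.18, did not pass. The median of the list with both mutations was -0.10 against -0.03.

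Of 17 other inhibitory receptors and their ligands, 6 rose and 1 fell with both mutations, with a median of 0.15 against -0.03 for all gene probe sets, and with CEBPA_V314VW alone 1 rose and 2 fell with a median of -0.12 against 0.00. Lilrb4a, a leukocyte immunoglobulin-like inhibitory receptor, fell by 2.24 with CEBPA_V314VW and rose by 1.80 with both mutations. Pirb, a related receptor, rose by 3.10 with both mutations. Both genes have close relatives that an array probe set may not separate. Vsir, which encodes VISTA, fell by 0.68 with CEBPA_V314VW and rose by 0.73 with both mutations. Cd244a rose by 0.48 with CEBPA_V314VW and by 0.41 with both mutations. Pdcd1, which encodes PD-1, differed by 0.17 and by 0.15 and did not pass. With CSF3R_T618I alone against empty vector, Pirb rose by 3.67, Lilrb4a by 2.67 and Vsir by 1.19, while Cd244a, at 0.11, did not pass.

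Rgs7bp anchors RGS proteins of the R7 family, whose 4 genes differed in level. Rgs7 lay at or below the background mean in all 4 groups and Rgs6 in 3 groups, whereas Rgs9, with group means of 5.52 to 5.76, and Rgs11, with 5.66 to 5.92, lay above it in all 4 groups. Gpr158, an orphan receptor that also recruits R7 proteins, lay at or below it in all 4 groups. Of 21 measured genes, 1 rose and 0 fell with CEBPA_V314VW in limma (3 at an unadjusted p under 0.05), with a median of -0.01 against 0.00. Rgs2, an RGS protein outside the R7 family, rose by 0.77 with CEBPA_V314VW and by 1.51 with both mutations. Gnb5, which encodes the G beta subunit bound to all R7 proteins, differed by 0.15 with CEBPA_V314VW, which did not pass, and rose by 1.48 with both mutations. Rgs9bp, the retinal relative of Rgs7bp, fell by 1.21 with both mutations. The list median there was 0.21 against -0.03. With CSF3R_T618I alone against empty vector, Gnb5 rose by 1.57 and Rgs9bp fell by 1.40.

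**Figure D5:**
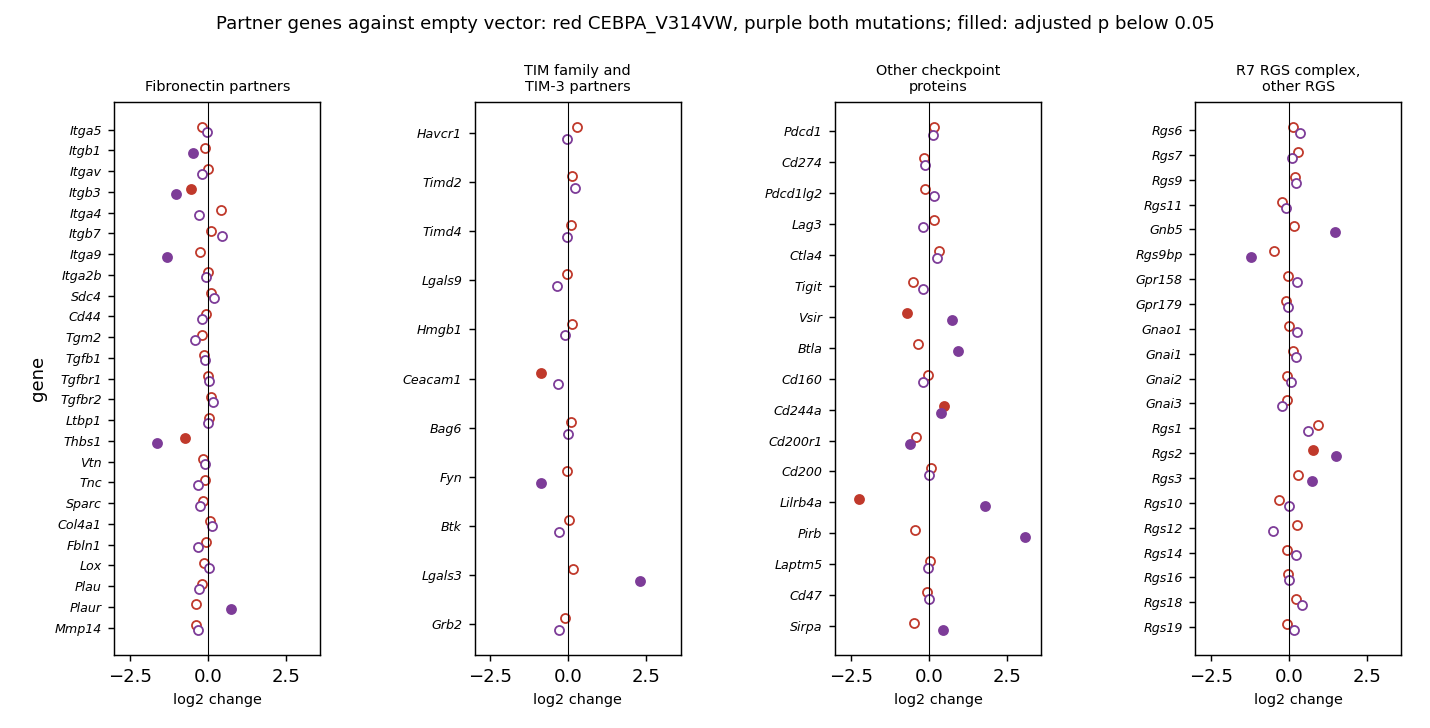
Log2 difference from empty vector of the 74 measured partner and related genes, in 4 lists from left to right. Red circles are CEBPA_V314VW alone and purple circles both mutations, and filled circles passed at an adjusted p under 0.05 in limma. CSF3R_T618I alone is not drawn. The left panel shows Thbs1 at -0.74 and -1.63, and the right panel Rgs2 at 0.77 and 1.51.

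Other cell types use these genes too, so marker lists were read beside them. Over all gene probe sets, 1.97% passed with CEBPA_V314VW and 5.45% with both mutations, each against empty vector. The 14 measured granulocyte markers, which belong to the lineage of HoxB8 cells, were above background in at least 1 group, with a mean per array of 9.70 to 10.04 with CEBPA_V314VW, 10.96 to 11.05 with both mutations, 11.44 to 11.50 with CSF3R_T618I and 10.86 to 10.98 with empty vector, and 11 of them fell with CEBPA_V314VW. Their part in the differences of Fn1, Havcr2 and Rgs7bp was not tested. Monocytes and macrophages can make both fibronectin and TIM-3. Of their 16 markers, 4 (Mertk, Mrc1, C1qa and Timd4) were at background in every group, F13a1 rose by 0.91 and Ly6c2 fell by 1.11 with CEBPA_V314VW, and the mean of the list was 6.71 to 6.93 with CEBPA_V314VW and 6.78 to 6.86 with empty vector. In the comparison in which Havcr2 was tested, both mutations against empty vector, 6 of these 16 markers rose and 1 fell, and the list mean was 7.06 to 7.26 with both mutations, above all empty vector arrays. F13a1 rose by 1.37, Adgre1, which encodes F4/80, by 1.27, Fcgr1 by 1.13 and Vcan by 0.94, while Ccr2 fell by 0.97. With CSF3R_T618I alone the list mean was 7.01 to 7.21, and Havcr2 was above the background mean on 0 of 3 arrays. The part of monocytes and macrophages in the higher Havcr2 signal was not tested. Of 9 fibroblast markers 4 (Col3a1, Dcn, Lum and Postn) were at background in every group and Pdgfrb rose by 0.97 with CEBPA_V314VW, with list means of 5.93 to 6.25 there and 5.95 to 6.10 with empty vector. Prss34, a basophil protease, rose by 1.08 and Mcpt8, another basophil protease, fell by 1.20 with CEBPA_V314VW, where the mean of the 13 mast cell and basophil markers was 8.21 to 8.39, against 8.31 to 8.38 with empty vector. Of 13 dendritic cell, 10 T and NK cell and 8 neuron markers, 0 passed with CEBPA_V314VW in limma, with 3, 1 and 1 at an unadjusted p under 0.05. At 1.97% of all gene probe sets few would pass, so the count of 0 does not set these lists apart. The dendritic cell markers Itgax, Xcr1, Clec9a and Ccr9, the T and NK cell markers Cd3g and Ncr1, and the neuron markers Rbfox3 and Slc17a7 were at background in every group. Their list means were 5.86 to 5.97 for dendritic cells, 5.86 to 5.97 for T and NK cells and 5.82 to 6.06 for neurons with CEBPA_V314VW, against 5.80 to 5.93, 5.80 to 5.85 and 5.92 to 6.06 with empty vector. With both mutations, 3 granulocyte markers rose and 4 fell, 3 mast cell and basophil markers and 1 T and NK cell marker fell, and 0 fibroblast, dendritic cell or neuron markers passed in limma, with 2, 2 and 1 at an unadjusted p under 0.05.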

How the data were processed

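RNA from 12 samples (4 groups of 3) was hybridised to Clariom S mouse arrays. The authors deposited log2 values, made with Affymetrix Expression Console and RMA per the labels, which includes background correction, quantile normalisation and probe summarisation. Tool versions and the build of the array annotation are not given in the sources used here. RMA pulls low signals together, so differences near the floor are understated. Genes were named from the platform annotation, with symbols updated by gene ID (19572 of 22206 gene probe sets carried 1 symbol), and 6640 control probe sets were left out of the tests.

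Here limma 3.58.1 in R 4.3.3 fitted 1 mean per group over all 12 arrays, with Benjamini-Hochberg adjustment over the 22206 gene probe sets and a threshold of 0.05. It was tested on simulated data. The interaction is the CEBPA_V314VW difference in the presence of CSF3R_T618I minus that in its absence. The members, gene lists and tests were chosen with earlier results of these data known. Genes named beside the 3 members are up to 4 changed genes of each list and comparison with the largest change, the list genes nearest in function, the 10 genes of most similar pattern with the 3 most similar to each member, and the 10 most negative interactions under the same rule. Il17rb, Glyat, Il6, Arhgap32 and some marker genes were named after their values were seen. Alternatives tried were array weights, an intensity trend, median centring, quantile normalisation, the compared groups only, a filter on dim probe sets, replicate letters as a block, and each array left out.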

Additional observations from a re-analysis of the deposited data

Results flagged for a closer look

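The difference between CEBPA_V314VW and its control was not the same with and without CSF3R_T618I in each of the 3 genes. The interaction was -2.69 for Fn1, -2.10 for Havcr2 and -1.94 for Rgs7bp on the log2 scale. It is the measure that chose the genes, so it is given as a description with no test.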

How the results depend on the processing

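Against empty vector, the difference with both mutations kept its direction and its side of the threshold under all 20 alternatives for each gene. Over these, Havcr2 was 1.11 to 1.52 higher with an adjusted p of 0.000217 to 0.0181 in limma, Fn1 differed by -0.51 to -0.25 (0.0775 to 0.572) and Rgs7bp by -0.18 to -0.03 (0.635 to 0.968). The number of probe sets called in that comparison ranged from 852 to 1633. The 3 genes met the rule under all 19 alternatives that give an interaction, which the compared groups alone cannot give. The number of probe sets that met it, 18, was 9 to 16 with 1 array left out: 9 without both mutations replicate B, 10 without both mutations replicate A, and 11 without CEBPA_V314VW A or C, CSF3R_T618I B or C, or empty vector A. The cause was not tested. With an intensity trend, CEBPA_V314VW changed 11 partner genes in place of 7, and under the other alternatives it changed 6 to 10. The interaction of partner genes passed in 2 with array weights and in 1 with an intensity trend, without both mutations replicate C, and without the C arrays of CSF3R_T618I and both mutations together.

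Stricter floors left few arrays above background. Above the 95th percentile of the background controls were 0 arrays for each of the 3 genes, and above that of 5222 intron controls (7.92 to 8.22) were 2 for Fn1, 0 for Havcr2 and 1 for Rgs7bp, so signal over background limits every level given here.

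Replicate letters were shared by the groups, but same-lettered arrays did not deviate together (r from -0.25 to 0.17 over 18 pairs, 4 above 0.1). With the letter as a block, Havcr2 was 1.26 higher with both mutations than with empty vector (adjusted p of 0.00696 in limma), Fn1 differed by -0.36 (0.239) and Rgs7bp by -0.10 (0.841), 1062 probe sets were called in place of 1211, and 13 met the rule in place of 18.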

Other observations

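The genes next to Fn1, Havcr2 and Rgs7bp on their chromosomes did not show a difference of that size with CEBPA_V314VW. For the 12 nearest protein-coding genes, 4 per gene in the RefSeq order of GRCm38.p6, log2 differences from empty vector ran from -0.35 to 0.28. In limma 0 passed, with 1 at an unadjusted p under 0.05, where 1.97% of all gene probe sets passed. Beside Fn1, Atic, an enzyme of purine synthesis, averaged 10.95 with CEBPA_V314VW and 10.72 with empty vector, and Mreg 6.00 and 5.98. Beside Havcr2, Med7, a Mediator subunit, averaged 8.32 with CEBPA_V314VW and 8.04 with empty vector. Beside Rgs7bp, Srek1ip1 averaged 7.85 with CEBPA_V314VW and 8.10 with empty vector, and Rnf180, a ubiquitin ligase, 6.59 and 6.87. These were chosen for their position, and the interaction passed in 0 of the 12, with 1 at an unadjusted p under 0.05. Over all gene probe sets the interaction passed in 0.324%. With 12 genes, both counts of 0 are near the shares over all probe sets.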
